A study of Homo sapiens with 4 samples.

Results

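HMGA2, its relative HMGA1, the RNA-binding proteins IGF2BP1, IGF2BP2 and IGF2BP3, and LIN28B were followed through RNA-seq of H1299 cells treated with HgCl2. H1299 is an established cell line, grown from a human non-small-cell lung cancer. In the study, treated cells received 5 μM HgCl2 for 48 h and control cells received the solvent, 0.6% EtOH, for 48 h. The deposited treatment text names the HgCl2 dose for all 4 samples, and the values of the study's methods are used here. Every transcript listed for these 6 genes was taken, 55 of the 227368 in the tables, of which 11 belong to HMGA2, 6 to HMGA1, 6 to IGF2BP1, 11 to IGF2BP2, 18 to IGF2BP3 and 3 to LIN28B. The genes were chosen by fold changes and counts already seen in these libraries, above all those of HMGA2, so the differences between the groups are descriptions and carry no test.

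Most of these genes are active in embryonic tissue, silent or low in most adult tissue, and switched on again in many carcinomas. This is why they are called oncofetal. HMGA2 and HMGA1 are small chromatin proteins that bind AT-rich DNA and bend it. The IGF2BP proteins bind mRNAs and guard them against decay, and LIN28B binds the precursors of let-7 microRNAs and blocks their maturation. The let-7 microRNAs pair through their seed with the 3′ UTR of target mRNAs and repress them. HMGA2 is a textbook target with several sites in its long 3′ UTR, and HMGA2 mRNAs that lose this UTR escape let-7. LIN28B is itself a let-7 target, so the pair can hold each other down.

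The RefSeq table (GRCh38.p14) holds 12 loci of the let-7 family, and all 12 mature sequences carry the same seed. Members that differ at the first base or in the tail are printed to show this, with the seed, bases 2 to 8, in capitals. They lie at chr9:94175962-94175983 (+), chr9:94178841-94178862 (+) and chrX:53556299-53556320 (-).
hsa-let-7a-5p: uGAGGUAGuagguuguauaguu
hsa-let-7d-5p: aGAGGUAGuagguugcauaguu
hsa-miR-98-5p: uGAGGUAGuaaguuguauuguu

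The complement of this seed is CTACCTC, and CTACCTCA extends it by the A that favours let-7 binding. Both were searched on the strand of the transcript only, in the annotated 3′ UTR of GENCODE 44 on GRCh38, and each longer match contains the shorter. The 3′ UTR of HMGA2-204 (ENST00000403681) is 2999 bases long and holds 4 matches, which start at bases 21, 1256, 1668 and 2521 after the stop codon. They are printed in this order because the long HMGA2 transcript is the one that carries nearly all counts, with the match in capitals, from chr12:65963299-65963320, chr12:65964534-65964555, chr12:65964946-65964967 and chr12:65965799-65965820 on the plus strand.
HMGA2 base 21: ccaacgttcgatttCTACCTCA
HMGA2 base 1256: cccactactcaataCTACCTCt
HMGA2 base 1668: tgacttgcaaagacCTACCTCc
HMGA2 base 2521: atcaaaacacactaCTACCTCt

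LIN28B-201 (ENST00000345080) and IGF2BP1-201 (ENST00000290341) also have 4 matches each, and the leading transcripts of the other genes have 1 each. For each of these genes the match nearest to the stop codon is printed, from chr6:105078813-105078834 (+), chr17:49051062-49051083 (+), chr3:185644220-185644241 (-), chr7:23311795-23311816 (-) and chr6:34245830-34245851 (+).
LIN28B-201 base 44: cccggttgcaaagtCTACCTCA
IGF2BP1-201 base 1632: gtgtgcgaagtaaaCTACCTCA
IGF2BP2-202 base 1304: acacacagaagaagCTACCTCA
IGF2BP3-201 base 560: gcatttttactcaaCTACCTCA
HMGA1-203 base 960: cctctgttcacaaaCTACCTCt
The HMGA1 match ends without the A, while the other 4 are full 8-base matches. A match is a stretch of letters and was not tested as a binding site.

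The counts added up to between 4720978 and 5053120 per column. In the 2 columns of each group the transcripts differed by less than the sampling noise, with a variance of 0.505 (EtOH) and 0.516 (HgCl2) times that of counting, against 31.8 between the groups. Each group was therefore counted as 1 sample, no p-value is given, and the 95% intervals below are exact (Clopper-Pearson) and cover counting error only. The mitochondrial genome took 24.8% of the EtOH counts and 17.9% of the HgCl2 counts, and its part in the differences was not tested. Of the epithelial markers, KRT8 had 53 and 58 counts in EtOH and 4 in each HgCl2 column, KRT7 had 15 and 14, then 3 and 2, KRT18 had 23 and 24, then 18 and 31, and EPCAM had 0 throughout. The part of this keratin difference in the results was not tested. The mesenchymal marker VIM had 501 to 628 counts per column, while PTPRC and ALB, which mark leukocytes and liver, had 0 and the endothelial marker PECAM1 had 1 to 5. The counts follow the bases that a transcript shares with no other listed transcript on its strand, here called its own bases. Of the 76836 transcripts with none, 1.10% had any count, so a value is that of a transcript's own stretch and not of a whole gene.

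HMGA2-204, the full-length transcript, had counts of 33638 and 34029 in EtOH, against 91615 and 91326 in HgCl2. In FPKM this was a mean of 1377 in EtOH and 4651 in HgCl2. The HgCl2 columns thus lay far above the EtOH columns. The log2 fold change of edgeR was 1.58 (1.56 to 1.60), or 2.99-fold. Over all 2712 tested transcripts that averaged at least 200 counts the median log2 fold change was 0.21, and HMGA2-204 stood 1.37 above it. In bulk RNA, more HMGA2 RNA per cell and a larger share of cells that hold it cannot be told apart.

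HMGA2-204 alone made up 0.670% (0.663 to 0.677) of all counts in EtOH and 1.94% (1.92 to 1.95) in HgCl2, a ratio of 2.89. Without the mitochondrial genome in the total, the shares were 0.890% and 2.36% and the ratio 2.65. By count it ranked 13 among all transcripts in EtOH and 5 in HgCl2, and 5 and 2 when mitochondrial transcripts were left out. By FPKM, which also divides by length, the ranks without mitochondrial transcripts were 21 and 10. The mean count of HMGA2-204 differed by 57637 between the groups, the largest gain of any listed transcript, and the next, that of XPOT-201, was 6712.5. These shares, ranks and gains compare own stretches and not genes, since transcripts without own bases rarely had any count. A gene whose transcripts overlap closely can thus rank low whatever its abundance. Among the 850 tested transcripts that averaged at least 1000 counts, 17 were at least 2-fold higher in HgCl2, and HMGA2-204 had the highest log2 fold change of them. The 5 transcripts of this set nearest to it in log2 fold change, over the same pair of groups, were RPL5P34-201 (1.45), ASPH-203 (1.39), STC1-201 (1.37), CAPRIN2-208 (1.34) and SRSF11-214 (1.32), all lower than HMGA2-204. RPL5P34 is a processed pseudogene, and its reads could be those of RPL5.

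**Figure D1:**
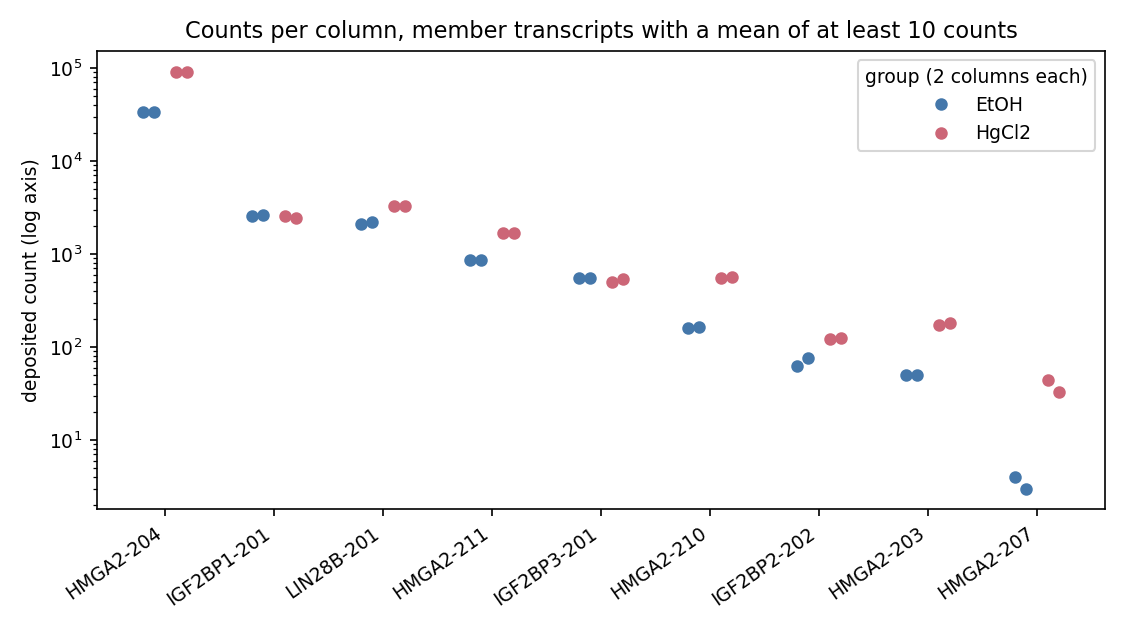
Deposited counts (log axis) in each EtOH and HgCl2 column for the transcripts of the 6 genes that averaged at least 10 counts in a group; each point is a column. The HgCl2 points of the 5 HMGA2 transcripts, of LIN28B-201 and of IGF2BP2-202 lie above the EtOH points, and those of IGF2BP1-201 and IGF2BP3-201 lie among or below them.

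The tables list 11 HMGA2 transcripts, most of which share their first exons, and which differ in where they end. HMGA2-204 took 96.9% of the HMGA2 counts in EtOH and 97.4% in HgCl2. Its own bases are the last 2881 bases of the gene (chr12:65963411-65966291, exon 5 of 5, all in the 3′ UTR), so its count is a count of the distal 3′ UTR. This stretch holds 3 of the 4 let-7 seed matches printed above. The match at base 21 lies outside it, in bases shared with HMGA2-209.

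The other coding transcripts end upstream and have no 7-base match. HMGA2-210 (ENST00000541363) reads on from exon 4 into a separate UTR of 7421 bases and ends at chr12:65958854, 7437 bases before the end of HMGA2-204. It had 158 and 166 counts in EtOH and 557 and 572 in HgCl2, a log2 fold change of 1.94 (1.69 to 2.21). HMGA2-203 (ENST00000393578) takes another last exon after exon 3 and ends at chr12:65843523, which is 122768 bases before the end of HMGA2-204. It had 50 counts in each EtOH column and 172 and 180 in HgCl2, a log2 fold change of 1.96 (1.5 to 2.44). Both ends lack a 7-base match, though that of HMGA2-210 holds 1 match to the shorter 6-base TACCTC. Both were higher in HgCl2, as was the distal 3′ UTR, and the part of let-7 in this was not tested. The own bases of HMGA2-210 and HMGA2-203 lie within introns of HMGA2-204. Whether their reads come from these ends or from unspliced HMGA2 RNA was not tested.

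HMGA2-211 (ENST00000545998) keeps the start of intron 2, from chr12:65828088 to 65829013, and makes no defined protein. It had 852 and 854 counts in EtOH and 1691 in each HgCl2 column, a log2 fold change of 1.13 (1.01 to 1.25). This is the member nearest above the 2-fold line, and it lay below it (0.96) when libraries were scaled without the mitochondrial genome or when at least 10 counts were required in every column. HMGA2-207 (ENST00000537275), a transcript marked for nonsense-mediated decay, had 4 and 3 counts in EtOH and 44 and 33 in HgCl2, a log2 fold change of 3.55 (2.05 to 5.72). Of the other 6 transcripts, 3 had between 0 and 4 counts per column and 3 had none, and 2 of these 3 have no own base.

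Relative to HMGA2-204, HMGA2-210 was 1.29 times as frequent in HgCl2 as in EtOH (95% interval on the log ratio of counts 1.08 to 1.54). HMGA2-203 gave 1.30 (0.951 to 1.78), an interval that includes no change. The retained-intron transcript HMGA2-211 went the other way, with 0.733 (0.675 to 0.797), and HMGA2-207 gave 4.07 (1.36 to 12.2) from few counts. In shares of the HMGA2 counts, HMGA2-211 went from 2.44% (2.28 to 2.61) to 1.80% (1.72 to 1.89) and HMGA2-210 from 0.464% to 0.601%. Per kilobase of own bases, HMGA2-204 had 11744 counts in EtOH and 31750 in HgCl2, HMGA2-210 had 22.3 and 77.8, HMGA2-203 had 82.5 and 290, and HMGA2-211 had 921 and 1826. The distal end thus exceeded the others by over 10-fold in both groups. The retained-intron stretch exceeded both alternative ends, whose own bases also lie within introns of HMGA2-204. The FPKM of HMGA2-204 imply a length of 4473 bases in the annotation of the authors, 356 more than in GENCODE 44, while those of the other named HMGA2 transcripts imply equal lengths.

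**Figure D2:**
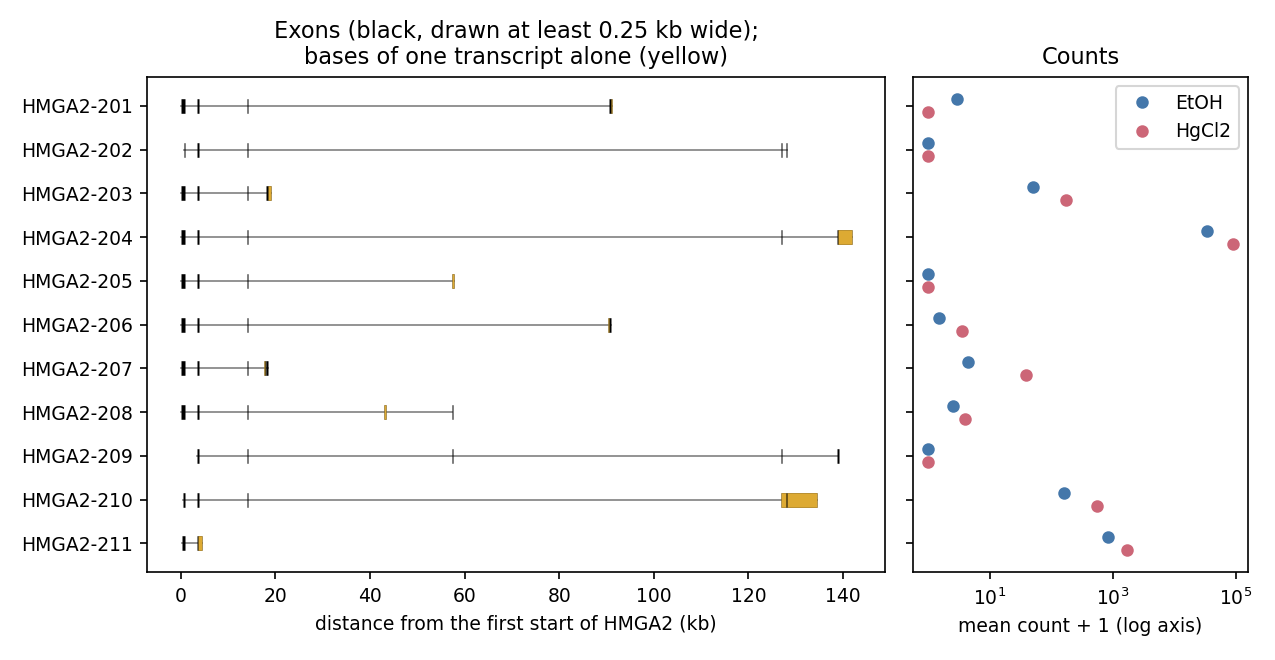
Left, the exons of the 11 HMGA2 transcripts by distance in kb from the first start of the gene, with bases of a single transcript in yellow. Right, the mean count plus 1 (log axis) in EtOH and HgCl2; HMGA2-204, whose own bases are its 2881-base distal end, lies above all others in both groups.

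LIN28B, the blocker of let-7 maturation, was covered by LIN28B-201 alone of its 3 transcripts. This transcript had 2107 and 2187 counts in EtOH and 3258 and 3310 in HgCl2. The HgCl2 columns were higher than the EtOH columns. The log2 fold change was 0.76 (0.68 to 0.84), below 2-fold and 0.55 above the median of the transcripts with at least 200 counts. Its longest own stretch is the last 2853 bases of the 3′ UTR (chr6:105080480-105083332), which hold 3 of its 4 seed matches. The relative LIN28A had 0 counts in every column.

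Among the mRNA-binding proteins, IGF2BP1 and IGF2BP3 were nearly level and IGF2BP2 was higher. IGF2BP1-201 had 2550 and 2601 counts in EtOH and 2555 and 2438 in HgCl2, a log2 fold change of 0.10 (0.02 to 0.18) that stood 0.11 below the median of well-counted transcripts. Its raw counts overlapped between the groups, while its FPKM did not, at 52.8 and 53.8 in EtOH and 66.1 and 63.0 in HgCl2. The sign of the fold change turned (-0.07) when libraries were scaled by their counts without the mitochondrial genome. It also turned (-0.08) when at least 10 counts were required in every column. The own bases of IGF2BP1-201 include its whole 3′ UTR of 6701 bases (chr17:49049445-49056145) with all 4 seed matches. IGF2BP3-201 (ENST00000258729) had 553 and 554 counts in EtOH and 502 and 539 in HgCl2, a log2 fold change of 0.05 (-0.12 to 0.23). This sign depends on the scaling, since it turned with totals without the mitochondrial genome and with at least 10 counts required in every column (both -0.12). Its own stretch (chr7:23310209-23311126) lies opposite MALSU1, and only 36 bases are its own when both strands are counted.

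IGF2BP2-202 (ENST00000382199) was counted far less, with 63 and 76 in EtOH and 122 and 124 in HgCl2. This transcript had a log2 fold change of 0.97 (0.53 to 1.41). It is the member nearest below the 2-fold line and passes it (1.01) with DESeq2. Its own stretch is the last 845 bases of the 3′ UTR (chr3:185643130-185643974), and its FPKM imply a transcript of 3688 bases, 595 fewer than in GENCODE 44. Per kilobase of own bases in EtOH, IGF2BP3-201 had 580 counts, IGF2BP1-201 had 371 and IGF2BP2-202 had 80.5, and in HgCl2 these were 546, 359 and 143. The value of IGF2BP2-202 uses own bases of GENCODE 44, which may be more than in the shorter transcript of the authors. That of IGF2BP3-201 uses own bases on its strand alone. By FPKM, over the whole length, IGF2BP1-201 (53.3 in EtOH, 64.6 in HgCl2) exceeded IGF2BP3-201 (23.6 and 27.7), so the order of these 2 depends on the length used. LIN28B-201 lay above the 3 IGF2BP transcripts on both scales, with 71.8 and 137 FPKM, and HMGA2-204 above all of them.

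HMGA1, the relative of HMGA2, could hardly be measured here. Its transcripts overlap so closely that 4 of the 6 have no own base, and HMGA1-203 (ENST00000374116) has 167. This transcript had 5 and 4 counts in EtOH and 6 and 5 in HgCl2, a log2 ratio of 0.42 (-1.65 to 2.61), and the other 5 had none. A difference in HMGA1 was not detectable from these few own bases. Summed per gene, the log2 fold changes were 1.57 for HMGA2, 0.93 for IGF2BP2, 0.76 for LIN28B, 0.10 for IGF2BP1 and 0.05 for IGF2BP3, close to those of the leading transcripts.

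Of the 55 transcripts, 26 had a count in any column and 29 had none, of which 17 have no own base. The 11 with a mean FPKM above 1 in a group were tested, 5 of HMGA2, 2 of IGF2BP1, 1 of IGF2BP2, 2 of IGF2BP3 and 1 of LIN28B. At least 2-fold higher in HgCl2 were 5 of these 11, all of HMGA2, where 19.2% of all 17547 tested transcripts were. At least 2-fold lower were 2 of the 11, against 34.1% of all tested. These 2 rest on 0 to 5 counts per column, IGF2BP1-205 with 4 and 5 in EtOH and 0 and 1 in HgCl2 and IGF2BP3-215 with 1 and 5, then 0 and 1, and their intervals include no change. The passing transcripts entered through the group where they are high, so the counts describe those that passed and not all members.

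With more reads behind each value the background is lower. With a mean of at least 30 counts, 8 member transcripts were tested and 4 were at least 2-fold higher, against 15.5% of all such transcripts. With at least 200 counts, 6 were tested and 3 were at least 2-fold higher, HMGA2-204, HMGA2-210 and HMGA2-211, against 4.65% of all, and 0 were 2-fold lower, against 2.03%. Since the genes were picked with these fold changes known, nothing is read from the shares beyond their size.

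**Figure D3:**
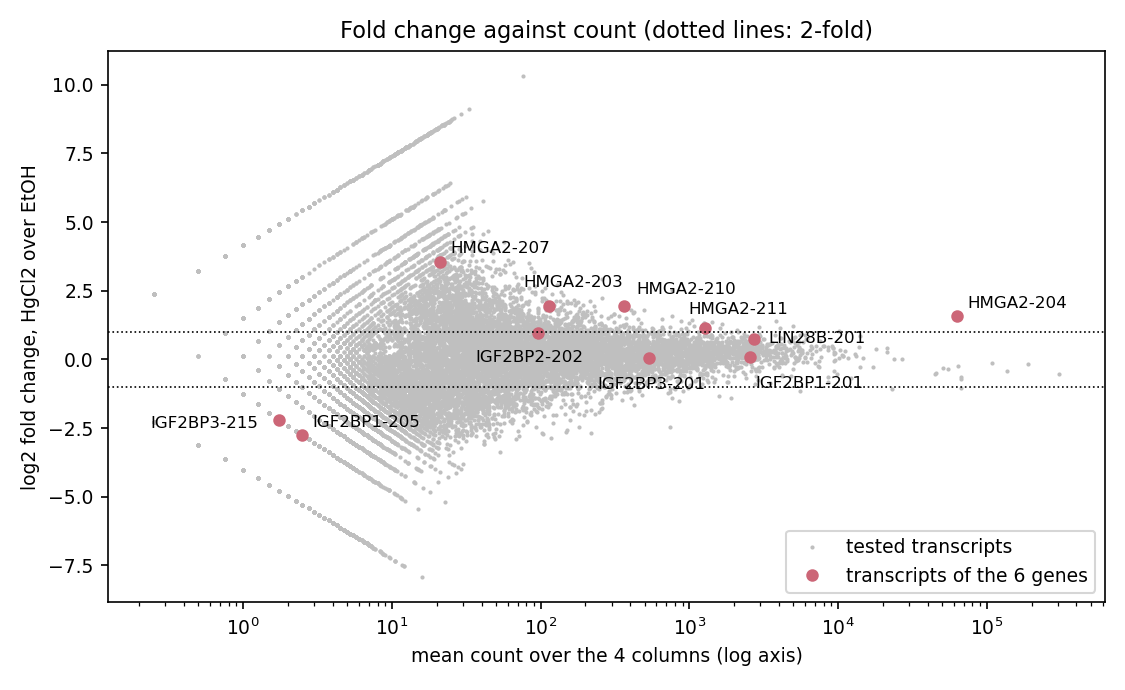
Log2 fold change of HgCl2 over EtOH against the mean count (log axis) for 17547 tested transcripts in grey and the 11 tested transcripts of the 6 genes in red. At low counts the grey points spread widely; HMGA2-204 lies alone at the right, above the 2-fold line.

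The seed matches were then set beside the fold changes of all well-counted coding transcripts, a property that the choice of the genes implied, since they are known as let-7 targets. Of 2166 coding transcripts that averaged at least 200 counts, 16.3% had a CTACCTC match and 0.369% had 3 or more. HMGA2-204, LIN28B-201, IGF2BP1-201 and ZBTB37-201 had 4, the highest number among them. The median log2 fold change was 0.19 for 1813 transcripts with 0 matches, 0.23 for 304 with 1, 0.14 for 41 with 2 and 0.15 for 8 with 3 or more. The class medians thus differed from that of the class without a match by 0.06 or less in either direction. The interval of the median was wide in the small classes, 0.05 to 0.35 with 2 matches and 0.04 to 1.58 with 3 or more. The transcripts with more matches also have longer UTRs, with medians of 2485, 3949, 7441 and 6821 bases from the lowest class to the highest.

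Within the class of 3 or more matches, HMGA2-204 (1.58) and LIN28B-201 (0.76) stood above the other 6, which lay between 0.04 and 0.28. These 6 were IGF2BP1-201, ZBTB37-201 (0.08), FIGN-201 (0.05), AP5M1-201 (0.04), MBD2-201 (0.21) and ZNF891-201 (0.28). FIGN-201 has 3 of the 8-base matches and IGF2BP1-201 has 3, while HMGA2-204 has 1 and LIN28B-201 has 2. With the 8-base match the class medians were 0.19, 0.23, 0.11 and 0.08, the last 2 from 3 and 2 transcripts. With the 6-base match TACCTC, a definition added after the data were seen, they were 0.18, 0.21, 0.23 and 0.21. HMGA2-210, which has no 7-base match and 1 6-base match, had a log2 fold change of 1.94. The part of let-7 in these fold changes was not tested.

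**Figure D4:**
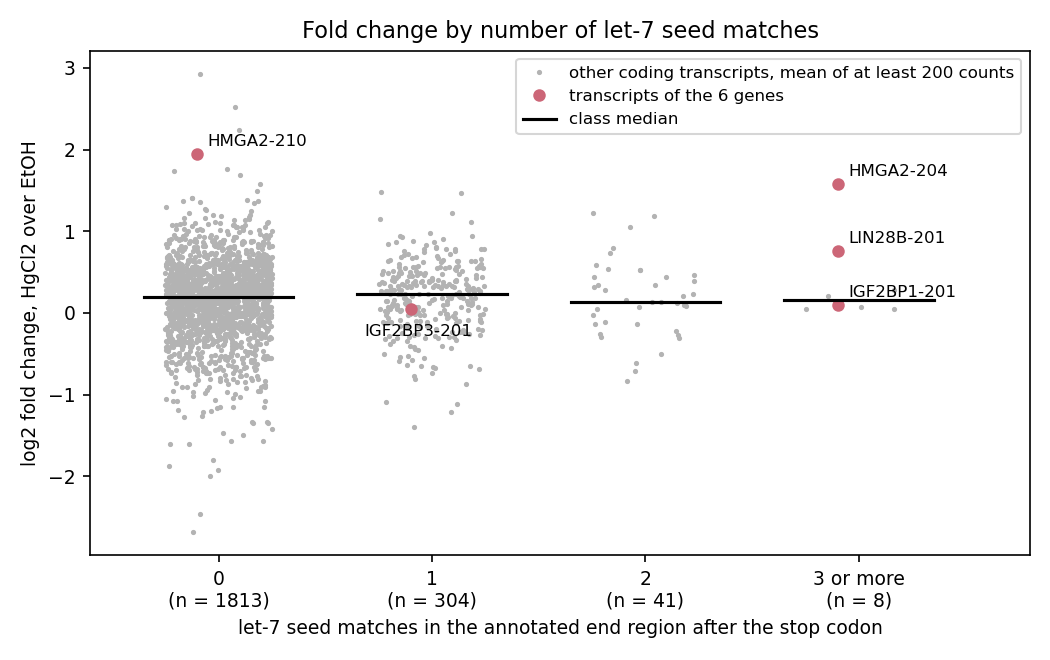
Log2 fold change of HgCl2 over EtOH for 2166 coding transcripts averaging at least 200 counts, by the number of CTACCTC matches in the annotated 3′ UTR, with class medians as bars and the transcripts of the 6 genes in red. The medians lie between 0.14 and 0.23, while HMGA2-204 lies at 1.58 in the class of 3 or more and HMGA2-210 at 1.94 in the class of 0.

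Mature let-7 was not measured, since these libraries were made from poly-A RNA. The other genes of the pathway were described from lists drawn up with earlier results known. Of 31 further let-7 targets, 16 had a tested transcript, 20 transcripts in all, of which 3 were at least 2-fold higher and 8 lower, near the 19.2% and 34.1% of all tested transcripts. Their median log2 fold change was -0.33, against -0.21 for all tested transcripts. With at least 200 counts in a group were CCND1-201 for cyclin D1 (0.75), NRAS-201 for the N-Ras GTPase (0.35), CDK6-201 for a cyclin D kinase (0.19) and PLAGL2-201 for a zinc-finger factor (-0.40), none of them past 2-fold, and THBS1-201 for the matrix protein thrombospondin-1, past it. CCND1-201 had 4902 and 4868 counts in EtOH and 7444 and 7428 in HgCl2, and THBS1-201 had 265 and 261, then 43 and 60 (-2.21). The remaining named targets were ACVR1C-201 for an activin-type receptor (-1.32), NR6A1-205 for an orphan nuclear receptor (-1.71) and MAP4K3-210 (2.44). The last is a retained-intron transcript of a kinase gene and has no annotated coding sequence. The targets thus lay on both sides of level.

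Of 24 genes of let-7 synthesis and action, 17 had a tested transcript, 38 in all, with 15 at least 2-fold higher and 14 lower, against 19.2% and 34.1% of all tested transcripts, and a median of 0.20 against -0.21. The 6 with at least 200 counts, which load or carry microRNAs or aid their processing, were all near level: AGO2-201 (0.20), AGO1-201 (-0.06), AGO3-203 (0.48) and AGO4-201 (0.19) for the Argonaute proteins, XPO5-201 (0.22) for the exporter of precursors and KHSRP-201 (0.09) for a let-7 processing factor. Higher in HgCl2 were thinly counted transcripts of the enzyme that tags let-7 precursors with uridine, TUT4-203 (1.75) and TUT4-205 (2.19), and of the nuclease that degrades them, DIS3L2-201 with 15 and 16 counts, then 79 and 59 (2.29). DROSHA-204 (2.34), XPO5-207 (3.10) and MIR100HG-227, from a let-7 host gene, (1.90) were also higher, and TNRC6A-204 had 0 counts in EtOH and 41 and 39 in HgCl2, at least 14.7-fold higher against 3 counts. HUWE1-215, from the host gene of let-7f and miR-98, was lower with 40 and 41, then 4 and 6 (-2.85). These are transcripts of few counts. TUT4-205, XPO5-207 and TNRC6A-204 keep an intron, and TUT4-203 and DROSHA-204 have no defined coding sequence. The 15 of 38 that were higher exceed the 19.2% of all tested transcripts, while the 14 lower are near the 34.1%. The list was drawn up with earlier results known, so nothing is read from these shares beyond their size.

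The IGF2BP proteins bind mRNAs such as those of MYC and CD44. Of 9 such genes, 4 had a tested transcript, 13 in all, with 1 at least 2-fold higher and 6 lower, against 19.2% and 34.1% of all tested transcripts, and a median of -0.22 against -0.21. CD44-211, for the hyaluronan receptor, had 8 and 18 counts in EtOH and 45 and 52 in HgCl2 (2.03).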

How the data were processed

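Poly-A RNA of H1299 cells was sequenced in 2 groups with 2 columns each. The authors trimmed the reads, aligned them with STAR 2.5.4b to GRCh38 and counted them per transcript with Rsubread, and deposited these counts without normalization. The deposited FPKM were made by the authors from the counts with DESeq2 1.26.0. Total counts per column lay between 4720978 and 5053120. The columns were assigned by their names, and none was left unassigned.

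Fold changes were computed with edgeR 4.0.16 (glmQLFit, TMM, R 4.3.3) over the 17547 transcripts whose FPKM averaged above 1 in a group. The same fit was run on simulated data with full counting noise and as many transcripts raised as lowered. These data differ on both points, so that run says little about the values here. The planned tests were not used, since each group was 1 sample. A transcript was called at 2-fold. Names, ends, own bases and UTRs come from GENCODE 44, which is later than the authors' annotation and holds 223558 of the 227368 identifiers. Of the members, those with a mean of at least 10 counts in a group are named. Of other lists, transcripts with at least 200 counts, or past 2-fold with at least 30, are named, except for an item not reported here. Alternatives changed the filter, the scaling, the tool (DESeq2 1.42.0, limma 3.58.1 on log2(FPKM + 1)), the block and the match, and left out each column. The members and lists were chosen with earlier results of these data known.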

Additional observations from a re-analysis of the deposited data

How the results depend on the processing

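HMGA2-204 was higher in HgCl2 under every alternative run. Its log2 fold change was 1.72 without a filter on low values, 1.40 with at least 10 counts in every column, 1.62 with the size factors of DESeq2 and also with DESeq2 itself, 1.53 with total counts, 1.41 with totals without the mitochondrial genome, and 1.76 from the deposited FPKM as a ratio and with limma. It was 1.57 to 1.59 with a column left out. The columns that share a number deviated together with a correlation of only 0.040 over 8751 transcripts. Since the columns of a group differ by less than counting noise, this cannot show whether the numbers pair anything. The replicate block gave 1.58 for HMGA2-204.

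Member transcripts at least 2-fold higher numbered 13 without a filter and 3 with at least 10 counts, and those lower numbered 7 without a filter, 0 with at least 10 counts, 0 with limma and between 1 and 2 with a column left out, with 1 when EtOH replicate 2 was left out. IGF2BP2-202 passed 2-fold without that column (1.11), without a filter (1.11) and by the FPKM ratio (1.14). Summed per gene, HMGA2 gave 1.61, 1.53 and 1.40 with DESeq2 size factors, total counts and totals without the mitochondrial genome, and with the last IGF2BP1 gave -0.077 and LIN28B 0.58. The share of HMGA2 was 0.890% and 2.36% without the mitochondrial genome, and 0.691% and 1.99% over all its transcripts.

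The medians by seed matches moved together: 0.33 (0 matches) and 0.37 (1) without a filter, 0.019, 0.057, -0.038 and -0.021 from 0 to 3 or more matches with at least 10 counts, 0.021, 0.059, -0.036 and -0.019 without the mitochondrial genome, and 0.23 and 0.15 for 0 matches with DESeq2 size factors and total counts. Missing own bases limit HMGA1, few counts limit the short isoforms, and 1 sample a group leaves the spread between cultures unknown.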

Other observations

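Around HMGA2, 27 annotated genes lie within 500 kb, of which 12 had 0 counts in all columns. Of these genes 10 had a tested transcript, 13 in all, with 4 at least 2-fold higher in HgCl2 and 2 lower, against 19.2% and 34.1% of all tested transcripts, and a median log2 fold change of -0.08 against -0.21. The antisense genes HMGA2-AS1 and RPSAP52 had at most 1 count per column, and another antisense gene, ENSG00000256083, had 3 to 7. An unnamed lncRNA gene of 301 bases on the same strand, ENSG00000277945 (chr12:65830750-65831050), lies within intron 2 of HMGA2-204, past the end of the retained-intron transcript. It had 89 and 81 counts in EtOH and 286 and 278 in HgCl2, a log2 fold change of 1.87 (1.52 to 2.24), and whether these reads come from unspliced HMGA2 RNA was not tested. It and the retained-intron transcript HMGA2-211 (1.13) are separate stretches of the same intron and differ in size of change.

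Outside the gene body, TMBIM4-201 had 2 and 5 counts in EtOH and 51 and 56 in HgCl2 (4.03). Another transcript of this gene, TMBIM4-202, had 38 in each EtOH column and 33 and 32 in HgCl2 (-0.08). Over the whole gene the counts were 50 and 51, then 92 and 96. The pseudogenes PCNPP3 (1.56) and RBMS1P1 (1.10) were also past 2-fold, each with at most 45 counts per column.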
